A study of Homo sapiens with 12 samples.

Results

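The proteasome subunit genes were examined across 2 hepatocellular carcinoma cell lines, each grown with a vehicle or with the compound DAAD-2. Members were all probe sets whose only annotated gene symbol begins with PSMA, PSMB, PSMC or PSMD and ends in a number, with PSMB8 and PSMB9 left out. This gave 59 probe sets for 32 genes, of 54613 probe sets and 19775 genes on the array. The set is meant to hold the constitutive subunits, but the rule also keeps PSMB10, which replaces PSMB7 in the immunoproteasome, and PSMA8, a subunit of the testis. For PSMA6, PSMB11, PSMC5, PSMD7 and PSMD13 there was no probe set annotated to the gene alone, and 4 probe sets that pair PSMA6 or PSMA2 with a second gene were not used.

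RNA of whole cultures was hybridised to Affymetrix U133 Plus 2.0 arrays, 3 per group and 12 in all. The 4 groups were HEP3B with 0.1% DMSO, HEP3B with 2 µM DAAD-2, SNU-449 with 0.1% DMSO and SNU-449 with 20 µM DAAD-2, all for 72 h. DAAD-2 is a dehydroabietylamine derivative with an N-acetyl cysteine group, and the labels call HEP3B sensitive and SNU-449 resistant to it. Because the doses differ with the line, a difference in response between the lines cannot be told apart from a difference between 2 and 20 µM. The labels do not state whether replicate arrays stem from independent cultures, and the p-values then rest on a spread that may be technical. In RNA of whole cultures, fewer cells of a type and less RNA per cell cannot be told apart. The directions rest on the sample labels. For SNU-449 the study's supplementary gene table heads its fold column as drug over control, but its columns of group means carry the control and drug headings the other way round and name HEP3B. If the labels of this line were exchanged, every SNU-449 difference would change sign.

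The 26S proteasome degrades proteins tagged with ubiquitin. Its 20S core is a barrel of 2 outer alpha rings, which gate the entrance, and 2 inner beta rings, which hold the peptidase sites. The 19S cap binds the barrel: its base contains the ATPases that unfold and push in the substrate, and its lid removes the ubiquitin. Cells that are short of proteasome activity can raise the transcription of nearly all subunit genes together through NFE2L1, a factor that binds antioxidant response elements. The genes are active in all cells, the liver included.

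All values are log2 units of the deposited RMA table, and every difference is on that scale. Replicate arrays correlated at 0.984 to 0.995 over all probe sets. The albumin gene ALB was at 14.45 to 14.56 on the HEP3B arrays and at 2.98 to 3.40 on the SNU-449 arrays, and the other 4 hepatocyte markers measured (AFP, APOA1, TTR and TF) were also higher on every HEP3B array. Of the mesenchymal markers, ZEB1 was at 2.97 to 3.50 in HEP3B and at 7.72 to 8.04 in SNU-449, SPARC and VIM were also higher on every SNU-449 array, CDH2 overlapped and FN1 was higher in HEP3B. Of the 4 leukocyte markers measured, PTPRC was at 2.88 to 3.28 and CD3E at 3.91 to 4.997 over all 12 arrays. LYZ was at 11.42 to 12.29 in HEP3B and at 2.997 to 3.21 in SNU-449. CD14 was at 5.24 to 6.13 in HEP3B and at 3.21 to 3.68 in SNU-449. On the HEP3B DAAD-2 arrays the upper quartile of all values was 5.79 to 5.89, against 5.68 to 5.72 on the HEP3B DMSO arrays. The SNU-449 DAAD-2 replicate 2 array had a GAPDH signal 1.99 higher at the 3′ than at the 5′ end, a measure of RNA quality. On the other SNU-449 arrays this was 0.34 to 0.97. In HEP3B it was 1.51 on DMSO replicate 1 and 0.45 to 1.05 on the other arrays. The same measure for ACTB was highest on SNU-449 DAAD-2 replicate 2 in that line (3.04). In HEP3B it was highest on DAAD-2 replicate 3 (3.27), with 2.73 on DMSO replicate 1.

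The promoters of the 3 members with the smallest p-values in HEP3B are shown because the NFE2L1 family acts on such sequence. They are the 250 bases before the start of PSMD12 (chr17:67366578-67366827, minus strand), PSMD1 (chr2:231056617-231056866, plus strand) and PSMB10 (chr16:67936851-67937100, minus strand), from RefSeq on GRCh38.p14. Each is written 5′ to 3′ along the gene, and capitals mark matches on either strand of TGACNNNGC (the core of the antioxidant response element), CCAAT (the NF-Y box) or GGGCGG (the SP1 box).
PSMD12: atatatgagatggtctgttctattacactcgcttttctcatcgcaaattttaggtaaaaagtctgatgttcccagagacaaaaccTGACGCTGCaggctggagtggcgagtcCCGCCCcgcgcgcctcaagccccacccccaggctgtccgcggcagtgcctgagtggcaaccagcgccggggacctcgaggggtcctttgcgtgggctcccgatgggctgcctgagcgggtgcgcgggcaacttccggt
PSMD1: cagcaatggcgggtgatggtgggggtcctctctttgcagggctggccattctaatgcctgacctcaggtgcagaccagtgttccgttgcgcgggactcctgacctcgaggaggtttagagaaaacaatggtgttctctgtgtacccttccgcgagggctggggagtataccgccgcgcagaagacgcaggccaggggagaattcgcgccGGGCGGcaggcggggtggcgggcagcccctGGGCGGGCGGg
PSMB10: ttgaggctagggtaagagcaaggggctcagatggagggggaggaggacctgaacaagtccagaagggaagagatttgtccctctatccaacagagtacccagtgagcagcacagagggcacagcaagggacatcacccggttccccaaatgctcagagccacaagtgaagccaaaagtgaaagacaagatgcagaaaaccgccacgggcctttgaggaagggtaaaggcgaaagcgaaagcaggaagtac
The PSMD12 promoter holds 1 antioxidant response element core, whose first base lies at -165 from the start, and 1 SP1 box on the opposite strand. PSMD1 holds 3 SP1 boxes, of which the last 2 overlap, and a match of the antioxidant core lies at 40 after its start, outside the printed part. None of the 3 motifs is found in the PSMB10 window. Over windows of 300 bases (250 before and 50 after the start), which 27 of the 32 genes have, the antioxidant core was present for 8 member genes (29.6%), the NF-Y box for 14 (51.9%) and the SP1 box for 16 (59.3%). Of all 27305 genes with such a window, 16.1%, 39.7% and 48.3% hold them. The 8 genes with the antioxidant core are PSMA4, PSMB3, PSMC4, PSMD1, PSMD3, PSMD5, PSMD9 and PSMD12.

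The first comparison asked which subunit transcripts differed after 2 µM DAAD-2 in HEP3B. With 1 probe set per gene (the one with the highest mean over the 12 arrays), 29 of 32 subunit genes were above their DMSO mean, with a median difference of 0.22, against -0.007 over all 19775 genes. No single subunit passed the test: of the 59 probe sets, limma with Benjamini-Hochberg adjustment over all probe sets called 0 higher and 0 lower, and it called 0% of all probe sets in either direction. At an unadjusted p under 0.05, 22 of 59 were higher and 0 lower, where the background was 9.53% higher and 5.47% lower. This number was 11 without HEP3B DMSO replicate 1 or HEP3B DAAD-2 replicate 2. It was 14 without HEP3B DMSO replicate 3 or HEP3B DAAD-2 replicate 1, and 19 to 21 without either of the other arrays. HEP3B DMSO replicate 1 had the steepest GAPDH signal of its line, although the ACTB signal was steepest on HEP3B DAAD-2 replicate 3. With the GAPDH measure as a covariate, the median difference over the subunit genes was 0.20. The 3 DAAD-2 arrays lay wholly above the 3 DMSO arrays for 28 probe sets and wholly below them for 2, where 11% and 9.99% of all probe sets did so.

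Array by array, the median over the 32 subunit genes deviated from the HEP3B DMSO mean by 0.24, 0.27 and 0.12 on the DAAD-2 arrays and by -0.036, 0.056 and -0.028 on the DMSO arrays. The treated arrays did not overlap the controls, and 30, 29 and 27 of the 32 genes were above the DMSO mean on them. Part of this deviation was shared by other strongly expressed genes. When all genes were divided into 4 equal bins by mean level, a division chosen after the values were seen, 30 of the 32 subunit genes fell in the brightest bin. The median HEP3B difference there was 0.14 over all 4944 genes, 76.4% of which were above 0, and 0.22 over the 30 subunit genes, of which 28 were above 0. At an unadjusted p under 0.05, 29.2% of all genes in that bin were higher, against 14 of the 30 subunit genes. After quantile normalization of the deposited values the median over the 32 subunit genes was 0.087, and 6 of the 59 probe sets (10.2%), not 22, were higher at an unadjusted p under 0.05, against 5.97% of all. After cyclic loess the median was 0.083, and 5 of the 59 (8.47%) were higher, close to the 7.28% of all probe sets. The part of the array-wide difference in this result was not tested.

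Markers of cell types also differed between the HEP3B groups, although limma called none of them. Of the 5 hepatocyte markers, AFP (-0.43), APOA1 (-0.45), TTR (-0.32) and ALB (-0.06) were lower on every DAAD-2 array, and TF (0.01) overlapped. The log2 of the summed level of the list was 15.31 to 15.37 with DMSO and 15.26 to 15.28 with DAAD-2. Of the 4 leukocyte markers measured, LYZ (-0.59) and PTPRC (-0.24) were lower on every DAAD-2 array. CD14 (0.40) and CD3E (0.04) were higher on average, with overlap. The log2 of the sum, mostly LYZ, was 12.005 to 12.31 with DMSO and 11.46 to 11.78 with DAAD-2. Of the 5 mesenchymal markers SPARC was lower on every treated array (-0.45). VIM (0.53), ZEB1 (0.30), CDH2 (0.11) and FN1 (-0.15) overlapped between the groups, and so did the sums. PTPRC, SPARC and ZEB1 were dim in HEP3B, below the median of all probe sets (3.81) on every array. In SNU-449 none of the markers was called, and none of the hepatocyte markers separated the groups. The log2 of the mesenchymal sum was 14.1245 to 14.2295 with DMSO and 13.8438 to 14.1226 with DAAD-2, a narrow separation. Of that list only VIM (-0.25) was lower on every treated array, and the others overlapped. Of the leukocyte markers, CD14 (0.25, dim in this line) was higher and CD3E (-0.21) lower on every treated array. PTPRC, LYZ and the leukocyte sums overlapped. The part of these cell type markers in the differences of the subunits was not tested.

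**Figure D1:**
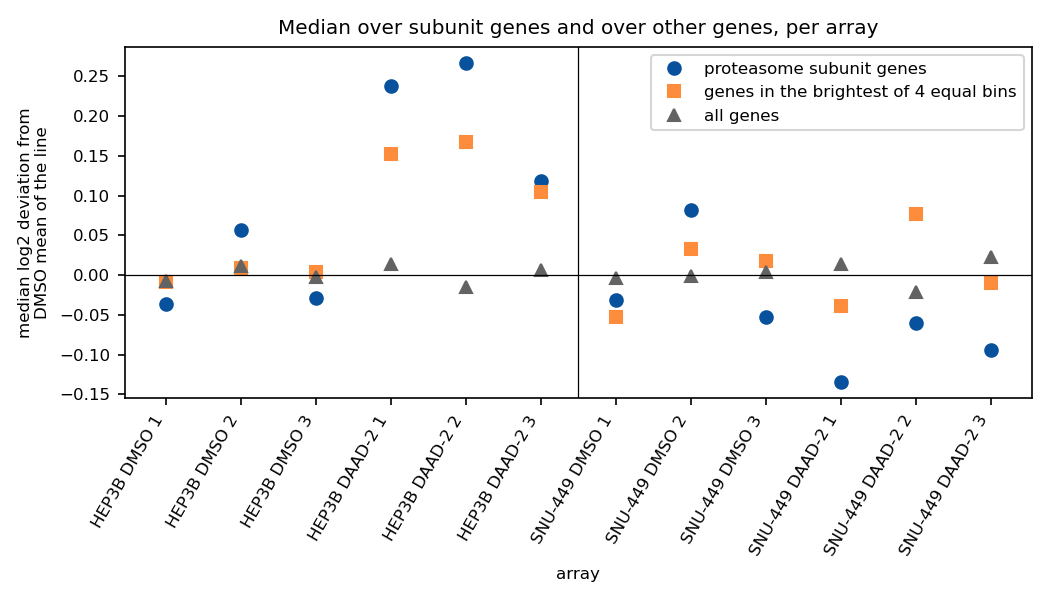
Median log2 deviation from the DMSO mean of the same line (vertical axis, log2 units) on each of the 12 arrays (horizontal axis), for the 32 subunit genes (circles), the genes of the brightest of 4 equal bins of mean level (squares) and all genes (triangles). On the HEP3B DAAD-2 arrays the circles lie at 0.24, 0.27 and 0.12 and the squares at 0.15, 0.17 and 0.10; on the SNU-449 DAAD-2 arrays the circles lie at -0.13, -0.060 and -0.094.

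PSMB10, a peptidase subunit of the immunoproteasome, had the largest difference and the smallest p among the members in HEP3B. It was at 4.90, 4.73 and 4.84 on the DMSO arrays and at 5.30, 5.68 and 5.41 on the DAAD-2 arrays. All treated arrays were above all controls, by 0.64 ± 0.12 (SE, 3 against 3 arrays; 1.56-fold; limma adjusted p = 0.0903). With all 12 arrays in 1 fit, its adjusted p was 0.0449, and PSMB10 was then the only member called, where 0.225% of all probe sets were called higher. The 2 immunoproteasome subunits outside the rule were not above control: PSMB9 was at -0.23 (adjusted p = 0.397) and PSMB8 at -0.19 (adjusted p = 0.451). PSMB9 was lower on every treated array, and PSMB8 overlapped. PSMB8 was dim in HEP3B, at 3.37 to 3.79, so that little can be read from its difference.

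PSMD12 is a scaffold subunit of the lid. Its probe set 202353_s_at was at 7.27, 7.07 and 7.21 with DMSO and at 7.70, 7.82 and 7.60 with DAAD-2. The groups were separate, with a difference of 0.52 ± 0.10 (SE; adjusted p = 0.0921, limma). The brighter probe set of the gene, 202352_s_at, gave 0.30 ± 0.11 (adjusted p = 0.264), also without overlap.

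PSMD1, the large scaffold of the base, followed with 9.63, 9.74 and 9.84 on the DMSO arrays and 10.17, 10.18 and 10.08 on the DAAD-2 arrays. The difference was 0.41 ± 0.10 (SE; adjusted p = 0.119, limma). Its neighbour in the base PSMD2, which docks ubiquitin-like proteins, gave 0.42 ± 0.13, whereas the ubiquitin receptor PSMD4 gave 0.04 ± 0.12. The median over the 3 base genes was 0.41, against 0.28 over the 6 lid genes and 0.19 over the 5 ATPases.

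Of the constitutive peptidase subunits, PSMB5 carries the chymotrypsin-like site, PSMB6 the caspase-like site and PSMB7 the trypsin-like site. PSMB5 was at 10.76, 10.83 and 10.80 with DMSO and at 11.11, 11.19 and 11.06 with DAAD-2 in HEP3B, a difference of 0.32 ± 0.09 (SE; adjusted p = 0.156). PSMB7 gave 0.25 ± 0.10 (adjusted p = 0.293) and PSMB6 0.12 ± 0.09 (adjusted p = 0.553). For all 3 genes the treated arrays lay above the controls, but by less than 1.3-fold.

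The alpha ring followed with a median of 0.21 over its 6 genes, all of them with treated arrays above the controls. PSMA7 was at 9.63, 9.87 and 9.90 with DMSO and at 10.12, 10.09 and 10.13 with DAAD-2 (0.32 ± 0.10, adjusted p = 0.206), and its second probe set gave 0.52 ± 0.16. PSMA2 and PSMA5 gave 0.05 and 0.19. In the beta ring without catalysis the genes differed among themselves, with 0.32 for PSMB2, 0.22 for PSMB4, 0.09 for PSMB3 and -0.01 for PSMB1. The deubiquitinase PSMD14 of the lid gave 0.32 ± 0.09 (adjusted p = 0.166). The ATPase PSMC3 varied so widely between arrays, from 8.90 to 10.06 with DMSO and from 8.91 to 9.80 with DAAD-2, that its difference of -0.03 had a standard error of 0.31. The 3 lower members with the smallest p-values were dim: PSMB2 probe set 231323_at at -0.15, PSMA8 at -0.15 and PSMD5 probe set 215546_at at -0.10, each below the array-wide median of 3.81 on every array. In all, 9 of the 59 probe sets had a mean below that median.

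**Figure D2:**
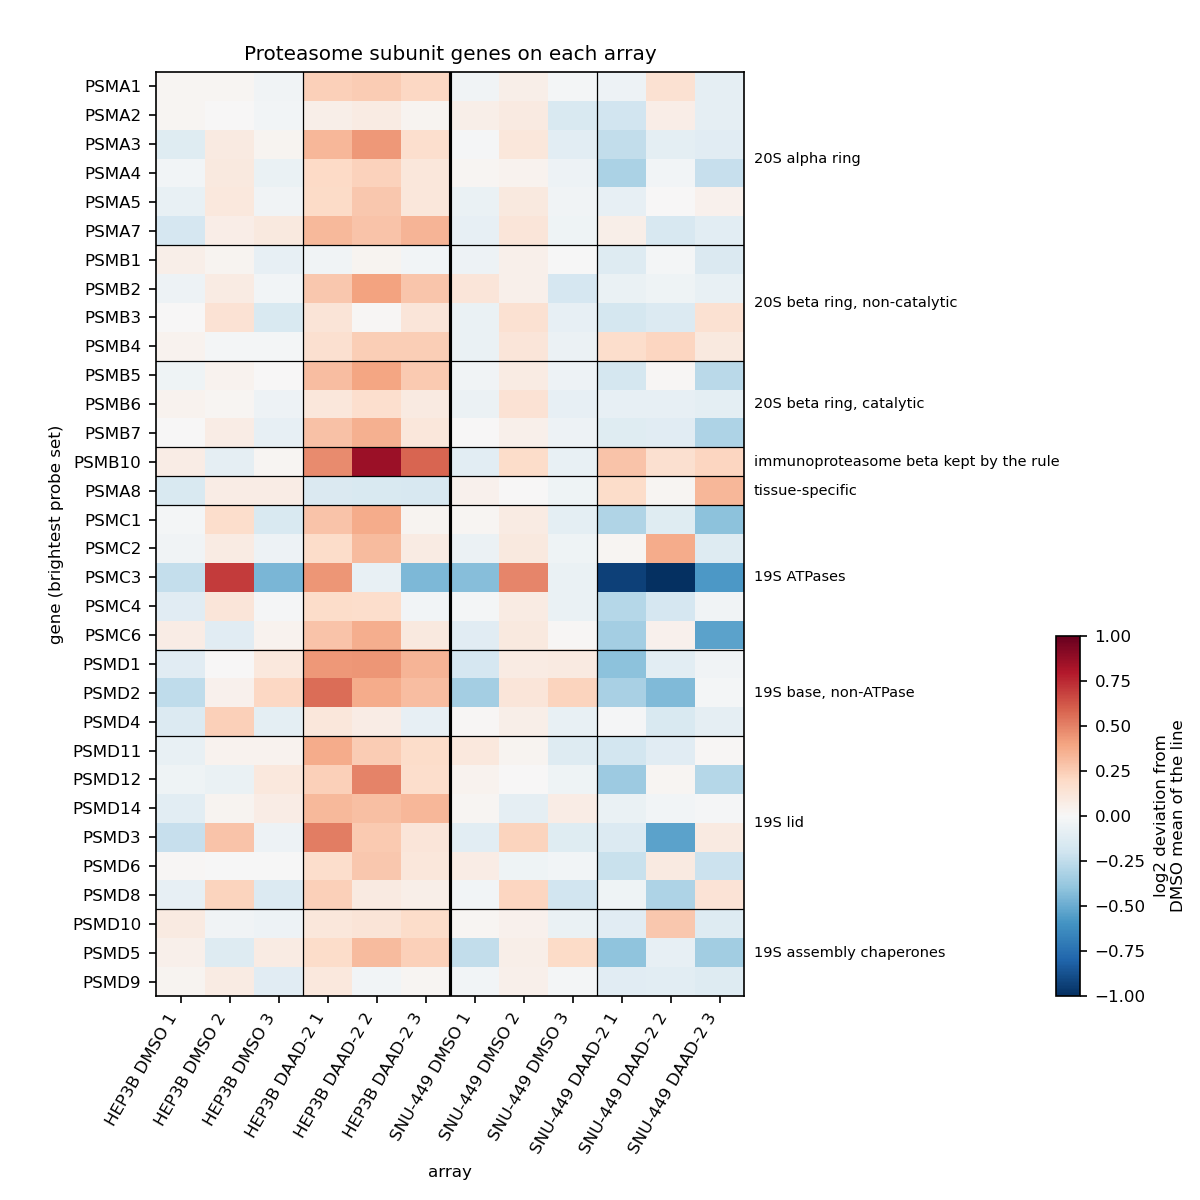
Deviation of each of the 32 subunit genes (rows, grouped by role) from the DMSO mean of its line on the 12 arrays (columns), in log2 units, with colours that saturate at -1 and 1. The HEP3B DAAD-2 columns are mostly red (30, 29 and 27 of 32 genes above 0), and the SNU-449 DAAD-2 columns mostly blue (5, 12 and 8 of 32 above 0). On the DMSO columns, 13, 25 and 12 genes are above 0 in HEP3B, and 12, 30 and 5 in SNU-449. The columns of SNU-449 DMSO replicates 1 and 3 are thus also mostly blue.

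The second comparison asked the same of 20 µM DAAD-2 in SNU-449. There 26 of the 32 subunit genes were below their DMSO mean, with a median of -0.098, against 0.003 over all genes. limma called 0 of the 59 probe sets higher and 0 lower, where 1.04% of all probe sets were called higher and 0.417% lower. At an unadjusted p under 0.05, 0 were higher and 9 lower, against 6% and 5.8% of all probe sets. The treated arrays lay wholly above the controls for 0 probe sets and wholly below them for 9, where the background was 8.34% and 7.76%. Only 2 of the 9 lower probe sets at an unadjusted p under 0.05, those of PSMC1 and PSMC3, were the brightest of their gene. With 1 probe set per gene, 2 of the 32 subunit genes (6.25%) were thus lower at this threshold, against 7.18% of all genes, and in the brightest bin 2 of 30 (6.67%) against 13%, so that the count over genes did not exceed the background. The genes of the brightest bin had a median of -0.005, and 49.3% of them were above 0, against 4 of the 30 subunit genes in that bin.

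On the single arrays the median over the subunit genes was -0.13, -0.060 and -0.094 with DAAD-2 and -0.032, 0.082 and -0.052 with DMSO. All treated arrays lay below all controls, but the gap to the nearest control was smaller than the spread among the controls. Without SNU-449 DAAD-2 replicate 2, the array with the steepest GAPDH signal, 16 probe sets were lower at an unadjusted p under 0.05, and 3 were called: PSMA2 probe set 201316_at at -0.83 (adjusted p = 0.0417), PSMA5 probe set 230300_at at -0.84 (adjusted p = 0.0304) and PSMC2 probe set 238020_at at -0.65 (adjusted p = 0.0445). Over all probe sets, the share lower at an unadjusted p under 0.05 was then 8.28%, and the share called lower 1.05%. Without SNU-449 DMSO replicate 2 the 9 members became 5. With the GAPDH measure as a covariate, 14 were lower at an unadjusted p under 0.05 and PSMA5 probe set 230300_at was called (adjusted p = 0.0349), against 7.82% and 0.716% of all probe sets.

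That PSMA5 probe set had the smallest p in SNU-449. It was at 5.54, 5.54 and 5.75 with DMSO and at 4.66, 5.18 and 4.90 with DAAD-2. The groups did not overlap, with a difference of -0.70 ± 0.15 (SE; adjusted p = 0.0658, limma). The main probe set of this alpha subunit, 201274_at, differed by -0.01 ± 0.11.

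PSMC3, an ATPase of the base, was at 7.79, 8.70 and 8.15 with DMSO and at 7.28, 6.72 and 7.64 with DAAD-2. The difference of -0.998 ± 0.27 (SE; adjusted p = 0.143) was the largest of any member in either line. It was -0.75 without DAAD-2 replicate 2, the array with the lowest PSMC3 value and the steepest GAPDH signal of the line. The gene is measured by 1 probe set that also varied among the HEP3B arrays. The median over the 5 ATPases was -0.28, the lowest of the groups, and PSMC1 (-0.28, adjusted p = 0.397) and PSMC6 (-0.28, adjusted p = 0.584) were near it, whereas PSMC2 was at 0.09.

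The third named probe set, 201404_x_at of PSMB2, was at 7.33, 7.31 and 7.34 with DMSO and at 7.01, 6.51 and 6.97 with DAAD-2 (-0.50 ± 0.15, adjusted p = 0.175), while the main probe set of this gene, 200039_s_at, differed by -0.06 ± 0.11. Without DAAD-2 replicate 2 the difference of 201404_x_at was -0.34. The peptidase subunits PSMB5, PSMB6 and PSMB7 were at -0.14, -0.09 and -0.18, and treated and control arrays were separate only for PSMB7 among them. PSMA7 and the main probe set of PSMA2 were both at -0.07. Above their controls were PSMB10 (0.22 ± 0.12, adjusted p = 0.546), PSMA8 (0.18 ± 0.12, adjusted p = 0.653) and PSMB4 (0.16 ± 0.11, adjusted p = 0.666), each with overlap between the groups.

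**Figure D3:**
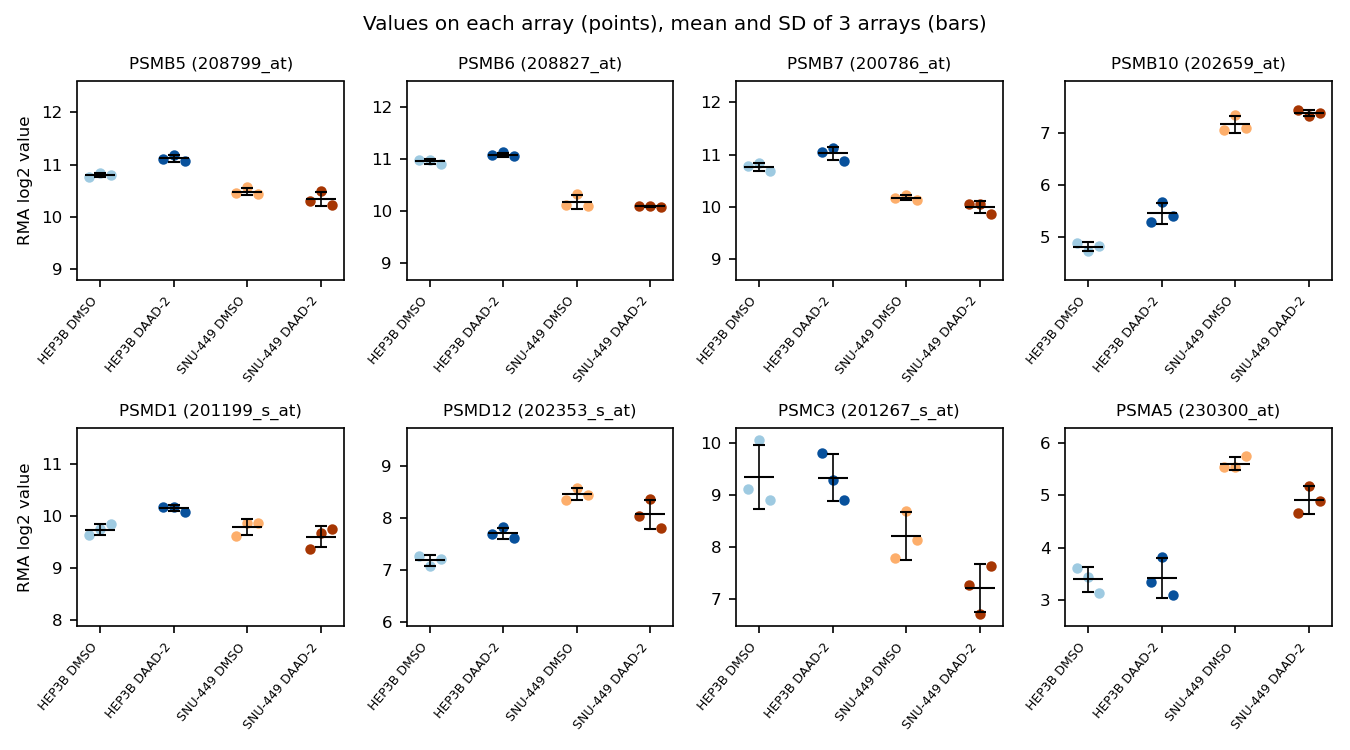
RMA log2 values (vertical axes, each spanning 3.8 units or slightly more where needed) of 8 probe sets on the 3 arrays of each group (points), with the mean and SD (bars). PSMB10 in HEP3B lies at 4.73 to 4.90 with DMSO and 5.30 to 5.68 with DAAD-2, and PSMC3 shows a wide spread within every group.

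Whether the 2 lines differed in their response was tested by an interaction contrast over the 12 arrays. The response was more positive in HEP3B for 31 of the 32 genes, with a median of 0.36, against -0.023 over all genes and 0.14 over the genes of the brightest bin. In that bin the response was more positive in HEP3B for all 30 subunit genes and for 65.2% of all genes. After quantile normalization the median over the subunit genes was 0.24, and after cyclic loess 0.20. By direction, 24 genes were above control in HEP3B and below it in SNU-449, 5 above in both, 2 below in both, and 1, PSMA8, below in HEP3B and above in SNU-449. With the SNU-449 groups exchanged, 24 genes were above control in both lines, 5 above in HEP3B and below in SNU-449, 2 the reverse and 1 below in both. The median difference in response was then 0.083, with 22 of the 32 genes above 0, and limma called 1 member higher, PSMB10 (0.86 ± 0.17, adjusted p = 0.0197), where 1.79% of all probe sets were. Of the 59 probe sets, limma called 1 higher and 0 lower, where 1.21% of all were called higher and 0.797% lower. At an unadjusted p under 0.05, 25 were higher and 1, PSMA8, lower, against 8.05% and 5.97% of all. In the brightest bin of genes, 14 of the 30 subunit genes were higher at this threshold, against 24.2% of all genes there.

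The probe set called was PSMD12 202353_s_at. To the HEP3B values given above, SNU-449 added 8.35, 8.58 and 8.43 with DMSO and 8.03, 8.36 and 7.80 with DAAD-2, where the groups overlapped by a little and the difference was -0.39 ± 0.15 (adjusted p = 0.355). The responses thus differed by 0.91 ± 0.19 (SE; adjusted p = 0.0284, limma). Left out 1 at a time, 4 of the 12 arrays left the call in place, and the adjusted p ran from 0.00567 without SNU-449 DAAD-2 replicate 2 to 0.0851. The call was lost without SNU-449 DMSO replicates 2 or 3, SNU-449 DAAD-2 replicate 1, any HEP3B DMSO array or HEP3B DAAD-2 replicates 1 or 2. With the SNU-449 groups exchanged, the difference was 0.13 ± 0.19 (adjusted p = 0.842). The brighter PSMD12 probe set differed by 0.51 ± 0.17 (adjusted p = 0.164).

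PSMA2 probe set 201316_at and PSMD1 came next. PSMA2 was at 7.71, 7.58 and 7.65 in HEP3B with DMSO, at 7.93, 7.99 and 7.74 with DAAD-2, and in SNU-449 at 6.76, 6.79 and 6.78 with DMSO and at 6.18, 6.57 and 5.72 with DAAD-2. Both lines showed separate groups in opposite directions, and the responses differed by 0.87 ± 0.23 (adjusted p = 0.0805). The main PSMA2 probe set, 201317_s_at, differed by 0.13 ± 0.14. PSMD1 differed by 0.59 ± 0.17 (adjusted p = 0.0994) and PSMB5 by 0.47 ± 0.14 (adjusted p = 0.115). With an intensity trend and a robust prior in limma, 3 members were called, PSMD12 202353_s_at (adjusted p = 0.0174), PSMB5 (0.0487) and PSMD1 (0.0499), where 1.53% of all probe sets were called higher. Without SNU-449 DAAD-2 replicate 2, 7 were called: both PSMD12 probe sets and 1 each of PSMA2, PSMB2, PSMB5, PSMC2 and PSMC6, where the share of all probe sets called higher was 2.93%. On the lower side the 3 smallest p-values were those of PSMA8 (-0.33), PSMD6 probe set 1555884_at (-0.16) and PSMA3 probe set 237300_at (-0.32), none of them called and all dim.

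**Figure D4:**
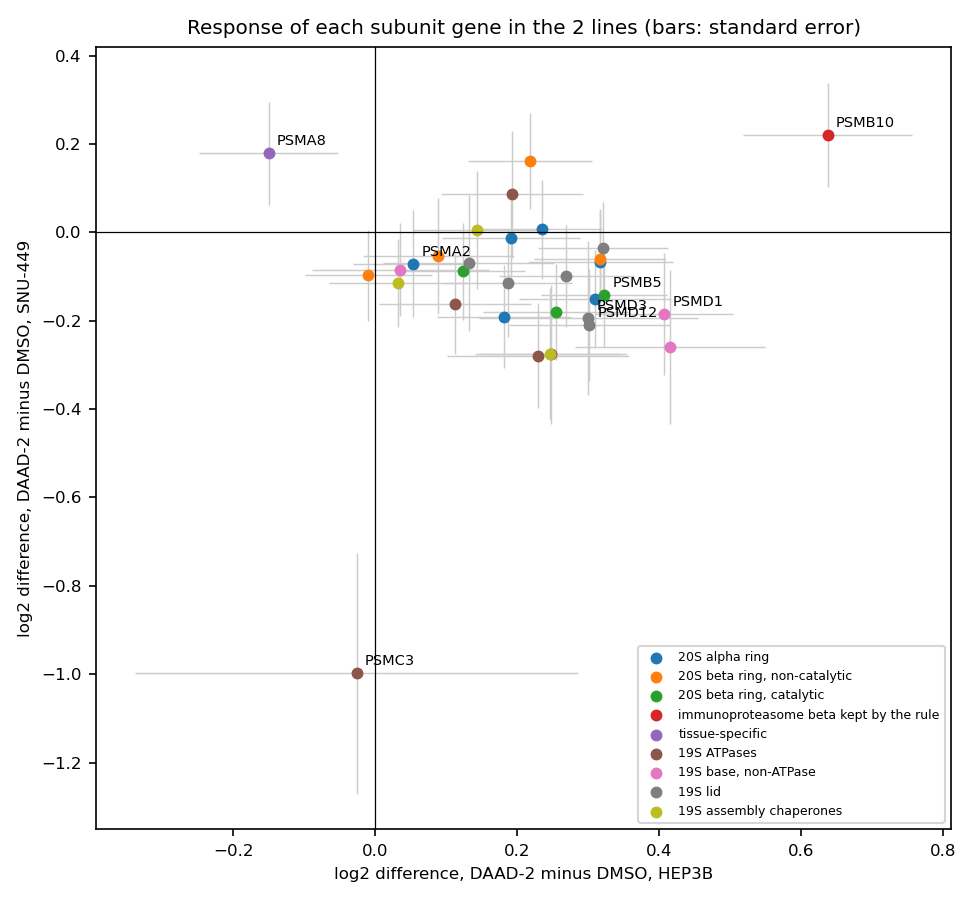
Difference between DAAD-2 and DMSO in HEP3B (horizontal axis) and in SNU-449 (vertical axis), both in log2 units, for the brightest probe set of each of the 32 subunit genes, coloured by role, with standard errors as bars. Of the 32 points, 24 lie to the right of 0 and below it; PSMB10 (0.64, 0.22), PSMA8 (-0.15, 0.18) and PSMC3 (-0.03, -0.998) stand apart.

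Between the untreated lines the levels of many subunits differed by more than the spread of the arrays. These comparisons use the same DMSO arrays as the responses. Of the 59 probe sets, 19 were called higher in HEP3B and 15 lower, where 14.5% and 14.8% of all probe sets were. With the brightest probe set of each gene, 13 of the 32 genes were called higher and 7 lower, with a median of 0.16. Of all 19775 genes, 4232 were called higher and 3829 lower, with a median of -0.009. Of the 13527 genes with a mean level not below the median of all probe sets, 4050 were called higher and 3594 lower. All subunit genes but PSMA8 are among these. All 4 genes of the beta ring without catalysis were higher in HEP3B, with a median of 0.84, and so were the 3 constitutive peptidase subunits, PSMB6 by 0.78 (adjusted p = 0.000337), PSMB7 by 0.60 (adjusted p = 0.00108) and PSMB5 by 0.32 (adjusted p = 0.0305). In the alpha ring 2 genes were higher and 3 lower.

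PSMB10 went the other way and had the largest difference of the set. It was at 4.73 to 4.90 in HEP3B and at 7.06, 7.35 and 7.09 in SNU-449, a difference of -2.34 ± 0.11 (SE; 5.08-fold lower in HEP3B; adjusted p = 5.39e-07, limma). Its constitutive counterpart PSMB7 was at 10.77, 10.84 and 10.69 in HEP3B and at 10.17, 10.22 and 10.12 in SNU-449. Among the other immunoproteasome genes, PSMB9 was lower in HEP3B (-0.99, adjusted p = 0.00147), and PSMB8 differed by -0.10 without a call. PSMB8 was near or below the array-wide median, at 3.55 to 3.79 in HEP3B and 3.44 to 4.05 in SNU-449.

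Several genes were measured by probe sets that disagreed. PSMD11, a lid scaffold, was called higher in HEP3B by 208777_s_at (1.52, adjusted p = 4.76e-06) and lower by 208776_at (-1.26, adjusted p = 4.9e-05). On the first it was at 10.17, 10.28 and 10.28 in HEP3B and at 8.83, 8.75 and 8.59 in SNU-449, and on the second at 4.61, 5.02 and 4.75 and at 6.06, 6.002 and 6.12. PSMC2 was called higher by 201068_s_at (1.08, adjusted p = 3.21e-05) and lower by 201067_at (-0.61) and 238020_at (-0.79), and PSMB2 higher by 200039_s_at (0.49) and lower by 201404_x_at (-0.57). These were 3 of the 18 genes with several probe sets. PSMD12 was lower on 202353_s_at (-1.27, adjusted p = 1.89e-05) and differed by 0.13 without a call on the brighter one. PSMA5 was lower on both of its probe sets, with -2.22 on 230300_at, where HEP3B was at 3.13 to 3.60 and so below the array-wide median, and -0.31 on the other.

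Probe sets agreed for PSMB1, higher by 0.96 and 1.05 on its 2 bright probe sets, for PSMA2, higher by 0.94 and 0.87, for PSMA7, lower with -1.07 and -1.29, and for the assembly chaperone PSMD9, lower with -0.70 and, on 209334_s_at, -1.23. PSMC3 was higher in HEP3B by 1.15 ± 0.32 (adjusted p = 0.0236).

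**Figure D5:**
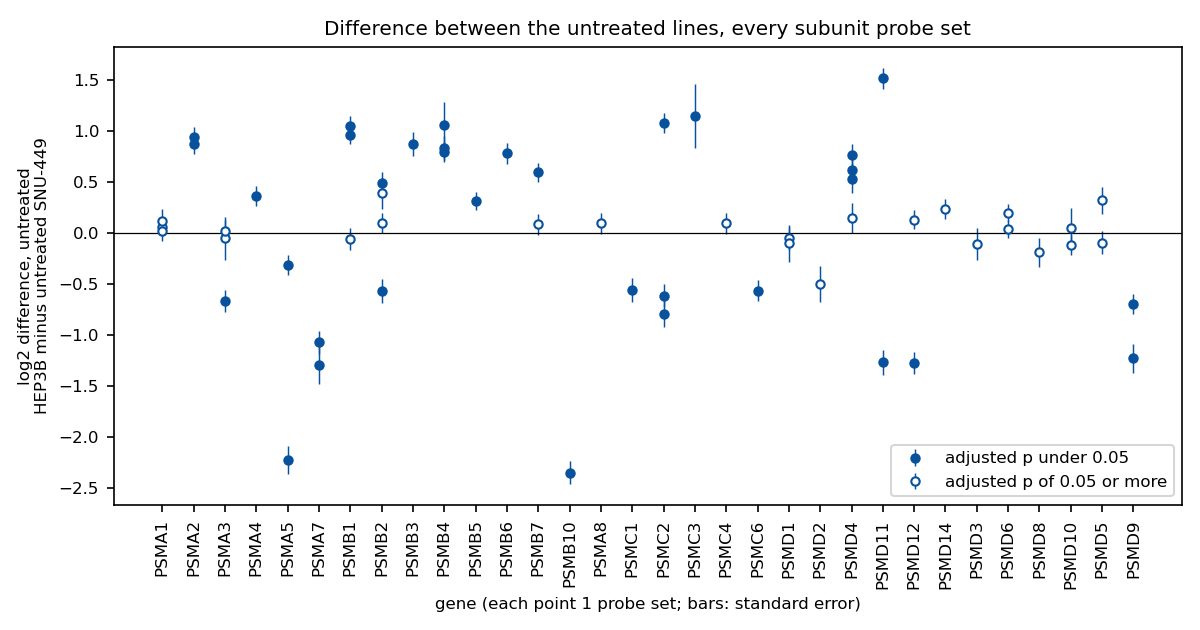
Difference between untreated HEP3B and untreated SNU-449 (vertical axis, log2 units) for each of the 59 subunit probe sets, placed by gene (horizontal axis), with standard errors as bars. Filled points have an adjusted p under 0.05 (19 above and 15 below 0), and PSMB2, PSMC2 and PSMD11 have filled points on both sides of 0.

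Other genes of the proteasome system were described from a list of 34, of which 28 were analysed here. In HEP3B, 25 of the 28 were above their DMSO mean, with a median of 0.25 and none called. At an unadjusted p under 0.05, 14 were higher and 0 lower, against 13.6% of all genes higher, and 29.2% in the brightest bin. The smallest p-values were those of the ubiquitin shuttle UBQLN1 (0.58 ± 0.09, adjusted p = 0.0706) and the NFE2L1 relative NFE2L3 (0.77 ± 0.12, adjusted p = 0.077). All 10 genes of the 19S partners and all 6 assembly factors were above 0. In the NFE2L1 pathway NFE2L1 itself gave 0.31, NFE2L2 0.10, the segregase VCP 0.38 and the deglycosylase NGLY1 0.53.

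In SNU-449, 14 of the 28 were above and 14 below 0, and limma called 1 higher, PSMB9, a peptidase of the immunoproteasome, where 1.82% of all genes were called higher. PSMB9 was at 5.13, 5.76 and 5.69 with DMSO and at 6.92, 6.31 and 6.92 with DAAD-2, higher by 1.19 ± 0.21 (adjusted p = 0.0351). This call held in 1 of the 6 fits that left out an array, that without SNU-449 DAAD-2 replicate 2, with adjusted p from 0.0199 to 0.15. In the interaction contrast 2 of the 28 were called, PSMB9 lower (-1.42 ± 0.26, adjusted p = 0.0172) and VCP higher (0.72 ± 0.15, adjusted p = 0.0314), where 1.46% of all genes were called lower and 1.82% higher. VCP, which extracts NFE2L1 from the endoplasmic reticulum, was at 8.11, 8.04 and 8.05 in HEP3B with DMSO, at 8.58, 8.44 and 8.32 with DAAD-2, and in SNU-449 at 7.94, 8.11 and 8.23 and at 7.61, 7.82 and 7.82. In both lines the VCP groups were separate, above the controls in HEP3B and below them in SNU-449. By the labels VCP differed by 0.38 in HEP3B and -0.35 in SNU-449, and PSMB9 by -0.23 and 1.19. With the SNU-449 groups exchanged, VCP would be above its controls in both lines. PSMB9 would be below its controls in both, and its difference in response would change sign. The other genes of the NFE2L1 pathway did not share a direction in SNU-449, and none was called there. NFE2L1 (-0.16) was lower, and NFE2L2 (0.41) and NGLY1 (0.28) were higher, on every treated array. NFE2L3 (0.35) was higher with overlap.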

How the data were processed

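Per the labels, total RNA of each culture was hybridised to U133 Plus 2.0 arrays. The authors deposited log2 values after robust multi-array averaging (RMA); BRB Array Tools is named in their methods, with the RMA version not given in the sources used here. No detection calls or scanner files were used here. The 62 control probe sets were left out, and probe sets were named from the platform annotation. The members and gene lists were chosen with earlier results of these data known. Each line was fitted separately with limma 3.58.1 (R 4.3.3; lmFit and eBayes, two-sided), and the interaction over 12 arrays, with Benjamini-Hochberg adjustment over 54613 probe sets; called means an adjusted p under 0.05. With 3 arrays a group, an exact permutation cannot go below p = 0.1, and the number of arrays limits the precision. Named probe sets were those called with the smallest p (up to 6 per direction, or the 3 smallest p where fewer than 3 were called), the peptidase subunits, members in the study's tables and genes with opposite calls. The fits were tested on simulated data. Alternatives were other scalings, filters, covariates, pooled or blocked fits and leaving out each array. Promoters were searched in Python 3.11.15.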

Additional observations from a re-analysis of the deposited data

Results flagged for a closer look

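The tests of the difference between the lines singled out 3 probe sets. The response of PSMD12 (202353_s_at) was 0.91 more positive in HEP3B than in SNU-449 on the log2 scale. That of VCP (208649_s_at) was 0.72 more positive, and 4 of the 12 fits that left out 1 array kept its call, with adjusted p from 0.0246 to 0.093 (limma). That of PSMB9 (204279_at) was -1.42, more positive in SNU-449, and 11 of the 12 such fits kept its call, with adjusted p from 0.00411 to 0.0504; it was lost without SNU-449 DAAD-2 replicate 1. With the SNU-449 groups exchanged, the differences of PSMD12 and VCP would be smaller and that of PSMB9 would change sign. Groups of 3 arrays were too small for a search for single outlying arrays.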

How the results depend on the processing

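None of the reported medians over subunit genes, counts of members or named probe sets reversed its direction under the alternatives that kept the labels. With the SNU-449 groups exchanged, every SNU-449 difference changed sign, and the difference in response of a single probe set could change sign too. Medians over all genes, which were near 0, changed sign in some alternatives. In HEP3B the median over the subunit genes moved from 0.22 to 0.087 with quantile normalization and 0.083 with cyclic loess. It was 0.15 with the mean over the probe sets of a gene and 0.20 with the GAPDH covariate. The 22 probe sets higher at an unadjusted p under 0.05 became 6 with quantile normalization (5.97% of all probe sets) and 5 with cyclic loess (7.28% of all). They became 1 when a fold over 1.5 was also required, against 775 of all 54613 probe sets. With all 12 arrays in 1 fit, 1 member was called, against 0.225% of all called higher. In SNU-449 the 9 lower at an unadjusted p under 0.05 became 3 with a fold over 1.5, against 792 of all 54613. They became 14 with the GAPDH covariate (7.82% of all), with which 1 was called lower (0.716% of all). For the difference in response, the median moved from 0.36 to 0.24 with quantile normalization and 0.20 with cyclic loess, and 3 members were called with the intensity trend. With DMSO and DAAD-2 exchanged in SNU-449, an alternative chosen after seeing the data, that median was 0.083. The median difference of the untreated lines moved from 0.16 to 0.098 with the mean over the probe sets of a gene. Centring the arrays moved the HEP3B median over all genes from -0.007 to 0.048. The split of all probe sets at an unadjusted p under 0.05 moved from 5202 higher and 2989 lower to 7097 and 1497.

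Replicate numbers did not pair the samples: arrays of the same number in the 2 groups of a line had deviations that correlated at -0.23, -0.27 and 0.09 in HEP3B and at -0.01, -0.08 and -0.06 in SNU-449. With the replicate block, 13 members were higher at an unadjusted p under 0.05 in HEP3B, against 8.26% of all probe sets. For the difference in response 0 members were called (PSMD12 adjusted p = 0.0597, limma). With the block PSMB9 (adjusted p = 0.0633) and VCP (0.0619) were not called for the difference in response either, nor PSMB9 in SNU-449 (0.0912).

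Leaving out each array in turn gave HEP3B medians of 0.17 to 0.25 and 11 to 21 probe sets higher at an unadjusted p under 0.05, with 11 without DMSO replicate 1 or DAAD-2 replicate 2 and 14 without DMSO replicate 3 or DAAD-2 replicate 1. In SNU-449 the median was -0.14 to -0.082, with 0 to 3 called lower and, at an unadjusted p under 0.05, 0 to 1 higher (PSMB10, without DMSO replicate 2) and 5 to 16 lower. The 3 and the 16 came without DAAD-2 replicate 2, and the 5 without DMSO replicates 2 or 3 or DAAD-2 replicates 1 or 3. For the difference in response the median was 0.31 to 0.37 and 0 to 7 (without SNU-449 DAAD-2 replicate 2) were called. Between the untreated lines, 15 to 19 were called higher and 14 to 15 lower, with a median of 0.15 to 0.18. Dim probe sets, 9 of the 59, and the 3 arrays a group limit what can be detected.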
